A study of Saccharomyces cerevisiae with 6 samples.

Results

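In budding yeast exposed to paraquat, every measured gene of the purine pathway to inosine monophosphate (IMP) had a mean log2 mRNA ratio below 0. None passed a test corrected over the whole array. The group comprised the genes of this pathway, namely ADE4, ADE5,7, ADE8, ADE6, ADE2, ADE1, ADE13, ADE16 and ADE17, together with BAS1, the gene of their activator. Membership was set by gene name, as 10 genes, and the group was chosen with earlier results of these data known. Of these, 9 had named probes (10 probes in all, since BAS1 had 2 with identical values), and these 9 were among the 5693 features that each of the 3 arrays measured. ADE5,7 (YGL234W), whose product catalyses both the second and the fifth reaction, had no named probe and was not analysed here. No filter on low values removed a member.

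Cultures of strain S288C, a laboratory strain of Saccharomyces cerevisiae, were grown in rich YPD medium at 25 °C to an optical density of 1. The exposed cultures then received 35 ppm paraquat (methyl viologen), a compound that passes electrons to oxygen inside cells and so makes superoxide, and the comparison used RNA taken at 2 h, while the reference cultures grew on for 2 h with nothing added. On each of 3 arrays, described as independent biological samples, cDNA of the exposed culture carried Cy5 and cDNA of the untreated culture carried Cy3, so that dye and treatment cannot be told apart. Each array was read at high and at low laser power, and the mean of both scans, or the single scan available, was taken as 1 replicate. All values below are log2 ratios of exposed over untreated cultures. That direction is likely, since the labels list the exposed channel first, but no source states it or the base of the logarithm, and with the opposite direction every sign below would turn. A ratio holds no expression level, so the strain could not be checked by marker genes, and less mRNA per cell cannot be told apart from a change in the mixture of cells.

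Purine synthesis starts from phosphoribosyl pyrophosphate (PRPP) and assembles the purine ring stepwise on the ribose phosphate, with glutamine, glycine, aspartate, bicarbonate and folate-borne formyl groups as donors. Its product IMP is the branch point to AMP and GMP. In yeast the ADE genes are transcribed by the Myb-type factor Bas1 with the homeodomain protein Pho2. Pathway intermediates promote the Bas1-Pho2 interaction, and external adenine lowers transcription of these genes.

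All 9 measured members had a mean log2 ratio below 0, between -0.88 for ADE13 and -0.04 for BAS1, against 50.8% of all features below 0. Their median was -0.44, and that of all 5693 features was -0.01. At a Benjamini-Hochberg adjusted limma p under 0.05, 0 of the 9 passed, beside a background of 0% of features lower and 0.0351% higher. With limma's unadjusted p under 0.05, 5 of the 9 were lower, where 5.29% of all features were. The same 5, ADE4, ADE2, ADE1, ADE13 and ADE17, were below 0 on all 3 arrays, as were 16.0% of all features. The remaining 4, ADE8, ADE6, ADE16 and BAS1, had arrays of both signs. Since the genes share 3 arrays and were chosen with earlier results of these data known, these counts describe the group and carry no test of their own.

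**Figure D1:**
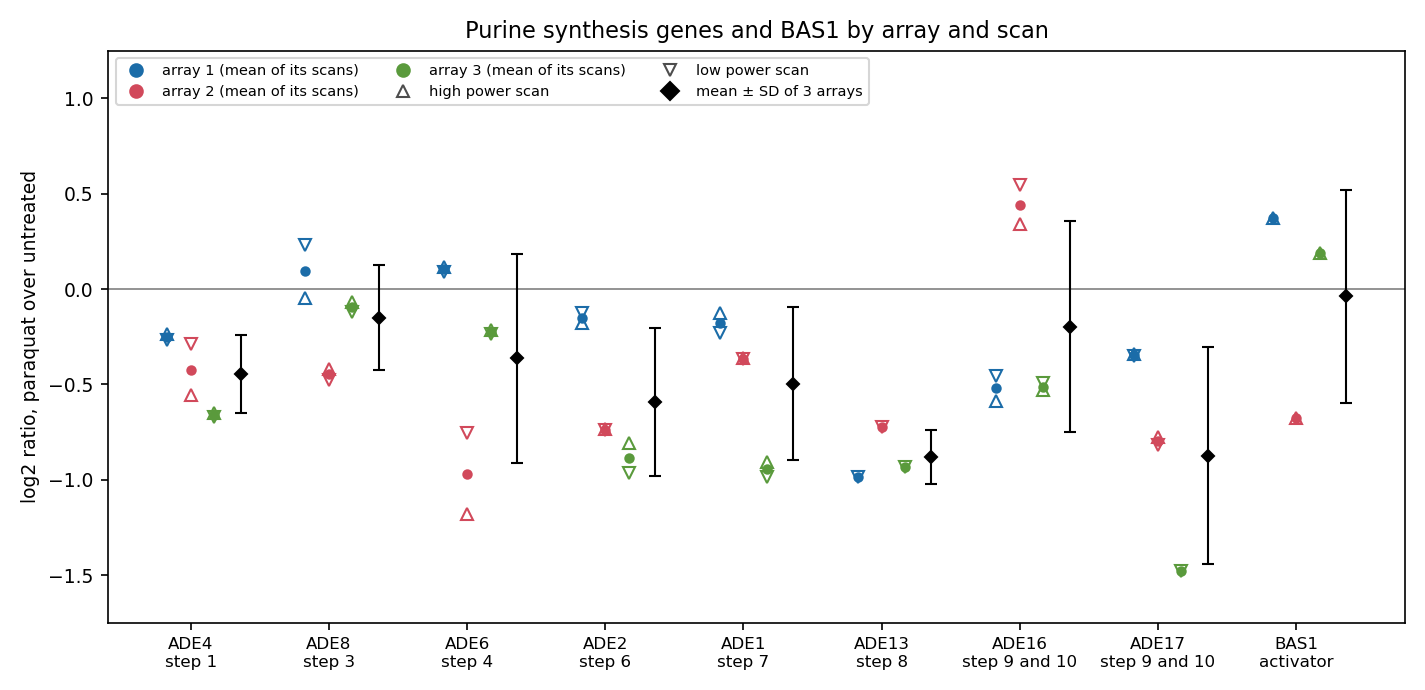
Log2 ratio of paraquat-exposed over untreated cultures (vertical axis) for the 9 measured genes in pathway order, with BAS1 last. Filled circles are arrays 1 to 3, open triangles their high (up) and low (down) power scans, and diamonds with bars the mean ± SD of 3 arrays. ADE13 sits between -0.99 and -0.72 on every array, while ADE16 and BAS1 spread over both sides of 0.

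The entry step lay moderately below 0 on every array. ADE4 (YMR300C) encodes the amidophosphoribosyltransferase that commits PRPP to purines and is inhibited by the end products. It had log2 ratios of -0.25, -0.42 and -0.66 on arrays 1, 2 and 3. The arrays thus had the same sign, with a mean of -0.44 ± 0.21 (SD, n = 3 arrays). The limma 95% interval was -0.85 to -0.03 (unadjusted p = 0.0353, adjusted p = 0.425). ADE4 held rank 278 from the lowest of 5693 means.

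The early ring-building enzymes ADE8 and ADE6 were below 0 mainly through array 2. ADE8 (YDR408C), the glycinamide ribotide transformylase that takes a formyl group from folate, had log2 ratios of 0.09, -0.45 and -0.09. ADE6 (YGR061C), the synthetase of formylglycinamidine ribotide that draws on glutamine, had 0.10, -0.97 and -0.23. For both, array 1 lay slightly above 0 and array 2 was the lowest. The mean of ADE8 was -0.15 ± 0.28 and its limma adjusted p 0.852 (SD, n = 3 arrays), and without replicate 2 the mean was -0.000269. The mean of ADE6 was -0.36 ± 0.55 (limma adjusted p = 0.578), and it was -0.06 without replicate 2 and -0.60 without replicate 1. The 2 scans of array 2 gave -1.18 at high and -0.75 at low power for ADE6, the widest gap between scans among the members.

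ADE2 and ADE1, the next enzymes measured along the pathway, were below 0 on every array, and least so on array 1. ADE2 (YOR128C) encodes the carboxylase of aminoimidazole ribotide, the intermediate whose oxidised polymer colours ade2 mutants red. It had log2 ratios of -0.15, -0.74 and -0.89 on arrays 1, 2 and 3. ADE1 (YAR015W), the synthetase of the following succinyl intermediate SAICAR, had -0.18, -0.37 and -0.95. In both genes array 3 was the lowest. ADE2 averaged -0.59 ± 0.39 (limma 95% interval -1.02 to -0.16, unadjusted p = 0.00908, adjusted p = 0.295). ADE1 averaged -0.50 ± 0.40 (limma 95% interval -0.93 to -0.07, unadjusted p = 0.0257, adjusted p = 0.397). Without replicate 3 the mean of ADE1 was -0.27. ADE2 ranked 88 and ADE1 185 from the lowest.

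ADE13 had the lowest mean of the group and the smallest spread. It encodes adenylosuccinate lyase (YLR359W), which acts in the pathway to IMP and again in the conversion of IMP to AMP. Its log2 ratios were -0.99, -0.72 and -0.93, all from low power scans, since no array gave a high power value. Per the labels, the low power scan served to recover spots too bright for the high power one. Only 48 features had a low power value and no high power value on every array. The mean was -0.88 ± 0.14 (SD, n = 3 arrays), with a limma 95% interval of -1.29 to -0.47 (unadjusted p = 0.000196, adjusted p = 0.102). It ranked 10 from the lowest of all 5693 features. ADE13 passed when low power scans were fitted alone (limma adjusted p = 0.0446), when features with a gene name were fitted alone (0.0392) and without replicate 2 (0.0325). The background of lower calls in those fits was 0.506%, 0.0958% and 0.454% of features. With low power scans alone or named features alone, ADE13 kept the values of the main fit, and only the rest of the fit differed. After removal of a trend over probe numbers its mean was -0.64 and the limma adjusted p 0.393.

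The paralogs of the last reactions had unlike values. ADE17 (YMR120C) and ADE16 (YLR028C) each encode an enzyme with AICAR transformylase and IMP cyclohydrolase activity, and Ade17 is the major form. ADE17 had log2 ratios of -0.35, -0.80 and -1.48 on arrays 1, 2 and 3. ADE16 had -0.52, 0.44 and -0.51. ADE17 was below 0 throughout, and its value on array 3, which came from the low power scan alone, was so low that 0.0351% of features on that array lay at or below it. ADE16 lay above 0 on array 2, where all other members were below 0. ADE17 averaged -0.87 ± 0.57 (limma 95% interval -1.33 to -0.42, unadjusted p = 0.000659, adjusted p = 0.142), and -0.57 without replicate 3. It passed on low power scans alone (limma adjusted p = 0.04996, mean -0.88). That fit held 1978 features, of which 0.506% were called lower. ADE16 averaged -0.20 ± 0.55 (limma adjusted p = 0.796), and leaving out replicates 1, 2 and 3 in turn gave -0.0345, -0.52 and -0.0388. The difference ADE17 minus ADE16 was 0.18, -1.24 and -0.96 on the 3 arrays, with a mean of -0.68 ± 0.75 (SD, n = 3 arrays), which did not exceed its own spread. Probe sequences were not used here, so RNA of one paralog binding the probe of the other cannot be told apart.

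The activator gene had arrays of both signs. BAS1 (YKR099W) had log2 ratios of 0.37, -0.67 and 0.19, all from high power scans. Its sign on array 2 was opposite to that on the other arrays. The mean was -0.04 ± 0.56 (SD, n = 3 arrays, limma 95% interval -0.49 to 0.42, adjusted p = 0.972), and it was 0.28 without replicate 2. These ratios concern BAS1 mRNA and say nothing of Bas1 protein or its activity.

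**Figure D2:**
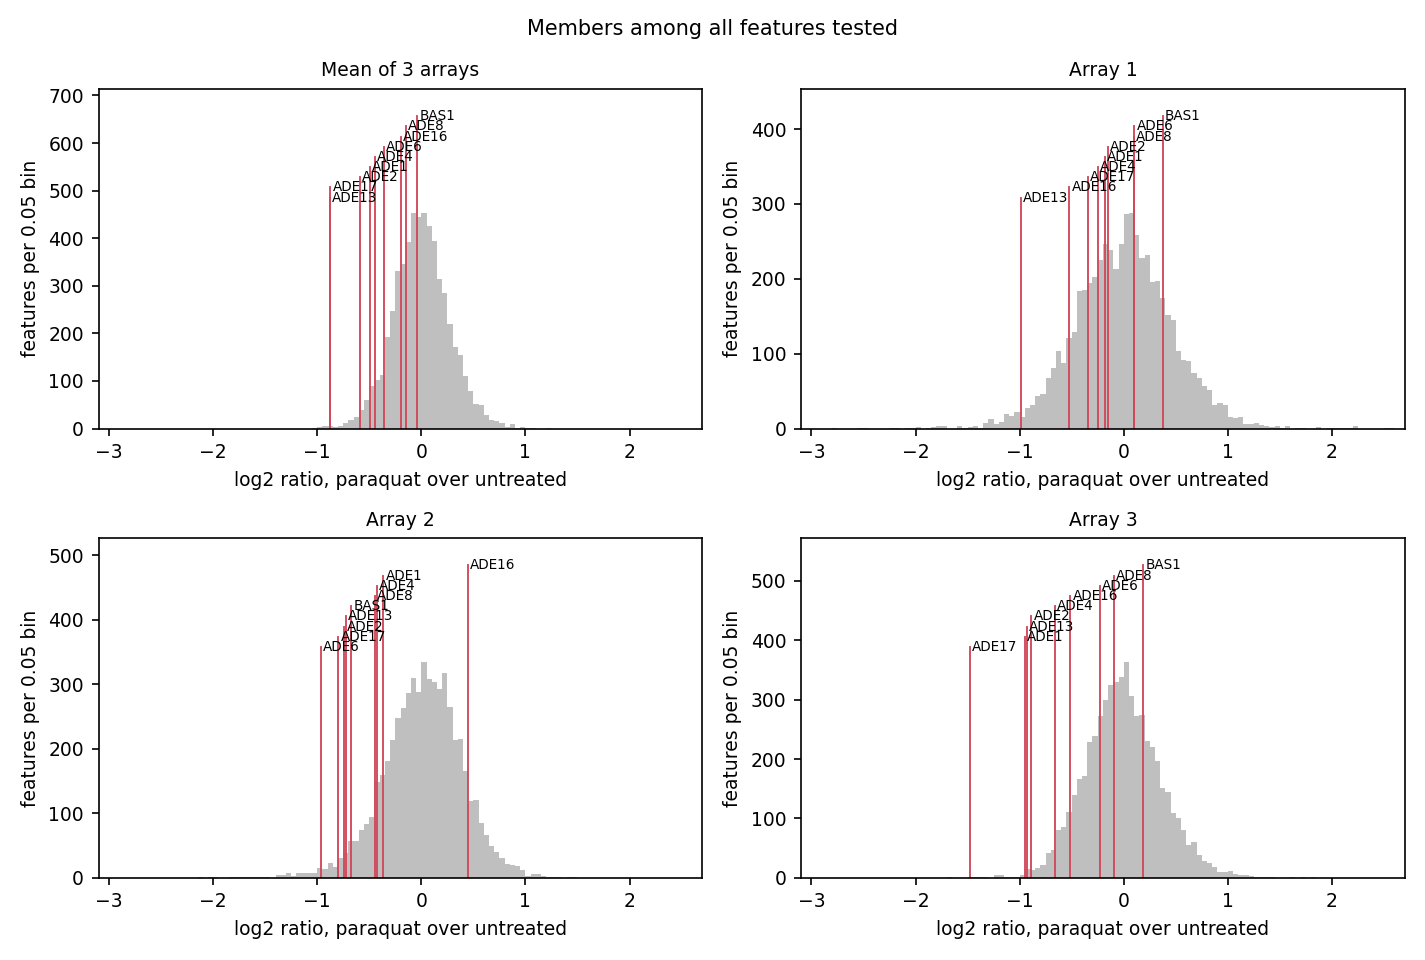
Histograms of the log2 ratio of all 5693 features (horizontal axis; features per bin, vertical axis) for the mean of 3 arrays and for each array, with red lines at the 9 measured genes. In the mean panel 6 of the 9 lie in the lowest 10% of features, and in the panels of arrays 1, 2 and 3 these are 1, 5 and 6.

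The arrays differed in how far the group lay below 0. On array 1 the median of the 9 was -0.18 and 6 were below 0, with ADE13 lowest and BAS1 highest. On array 2 the median was -0.67 and 8 were below 0, with ADE6 lowest at -0.97 and ADE16 highest at 0.44. On array 3 the median was -0.66 and again 8 were below 0, with ADE17 lowest at -1.48 and BAS1 highest at 0.19. Medians of all features were 0.01, 0.03 and -0.02 on the same arrays. In all, 22 of the 27 member values lay below 0, against 49.4% over all features. Members in the lowest 10% of features numbered 1, 5 and 6 on arrays 1, 2 and 3. The order of the genes was not the same from array to array: across the 9 genes, which share each array, Pearson r was -0.25 between arrays 1 and 2, 0.65 between 1 and 3 and 0.09 between 2 and 3, against 0.16, 0.22 and 0.03 over all features.

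Within an array, the scans of these genes lay close together. For 20 pairs of high and low power values among the members the median absolute difference was 0.05 on the log2 scale, while it was 0.15 over 8801 pairs of all features. The sets were not matched for signal, and 6 of the 9 members had a value in all 6 scans, as had 1794 of all 5693 features. In 19 of the 20 pairs both scans had the same sign, the exception being ADE8 on array 1 (-0.05 at high and 0.23 at low power). The spread between arrays was wider, with a median SD of 0.40 over the members and 0.30 over all features.

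A part of each array's variance followed the digit fields of the probe number, used here as a proxy for spot position, at 14.1%, 18.6% and 9.85% on arrays 1, 2 and 3. With that trend removed all 9 means stayed below 0, between -0.75 for ADE17 and -0.14 for ADE16. The median of the members was then -0.42. ADE1 moved to -0.63 and ADE8 to -0.27, farther from 0, and ADE13 to -0.64 and ADE6 to -0.29, nearer to 0. BAS1 was then at -0.19. The smallest limma adjusted p among the members in that fit was 0.393.

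**Figure D3:**
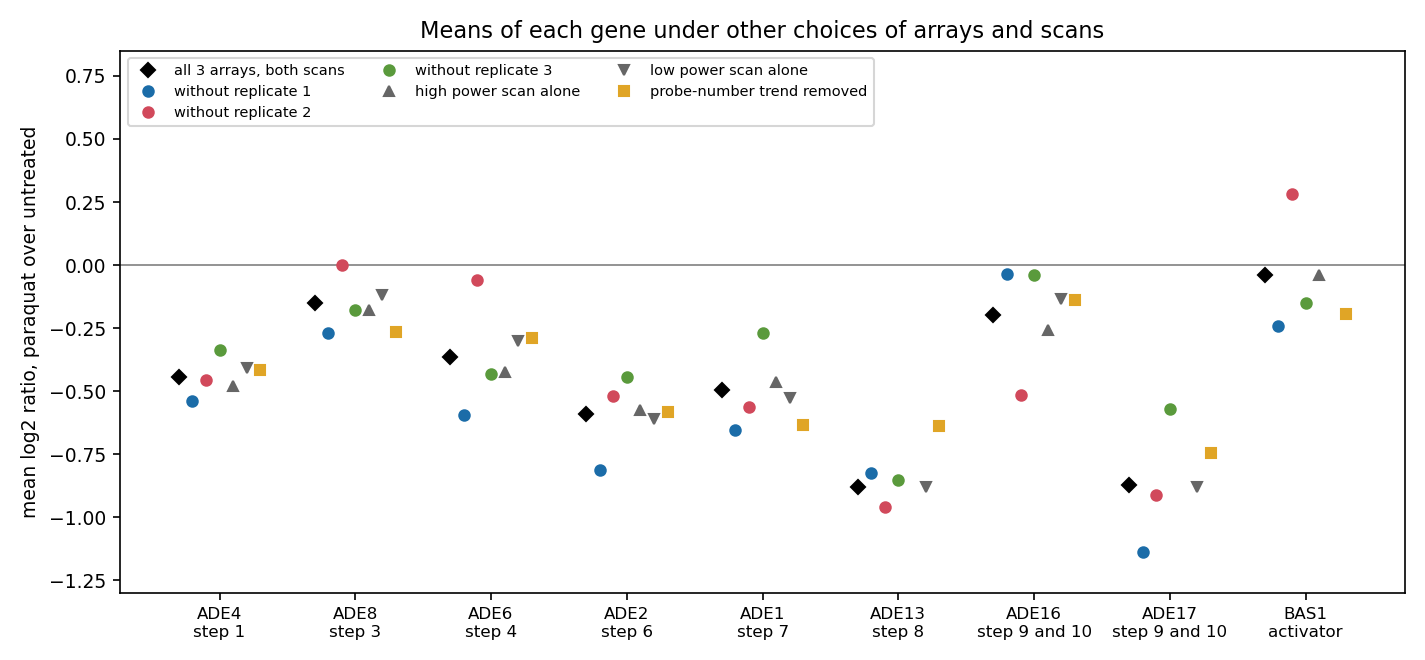
Mean log2 ratio of each measured gene (vertical axis) with all 3 arrays (black diamonds), without each replicate (circles), with high or low power scans alone (triangles) and with the probe-number trend removed (squares). All 8 enzyme genes are below 0 wherever a value is drawn (ADE13 and ADE17 have none for high power scans alone). ADE8 comes nearest to 0 at -0.000269 and BAS1 reaches 0.28, both without replicate 2.

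Genes that use or supply the pathway were set beside it by list, and none of their 40 measured members passed over all features. In the branches to AMP and GMP, 5 of 7 measured genes had a mean below 0, with a list median of -0.31. At limma's unadjusted p under 0.05, 1 was lower. Over all features 50.8% had a mean below 0 and 5.29% were lower at that p. IMD3, an IMP dehydrogenase gene, was lowest at -0.63 ± 0.66 (-0.28 without replicate 1, -0.40 with the trend removed). ADE12, the adenylosuccinate synthase gene that acts just before ADE13 on the way to AMP, was at -0.31, -0.53 and -0.22 on the 3 arrays, a mean of -0.35 ± 0.16 (limma adjusted p = 0.544). GUK1, the guanylate kinase gene, was highest at 0.17 ± 0.54, and at -0.14 without replicate 3.

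Folate and glycine genes, which make the formyl donors of the transformylase reactions, lay below 0 in 9 of 10 cases, with a median of -0.31. At limma's unadjusted p under 0.05, 4 were lower. Over all features 50.8% had a mean below 0 and 5.29% were lower at that p. SHM2, the cytosolic serine hydroxymethyltransferase gene, had log2 ratios of -0.60, -0.84 and -0.92 and thus lay below 0 on each array. MTD1, a methylenetetrahydrofolate dehydrogenase gene, had 0.03, -1.19 and -0.73, with array 1 apart. Their means were -0.78 ± 0.17 and -0.63 ± 0.62 (SD, n = 3 arrays, limma adjusted p = 0.142 and 0.295). With the trend removed SHM2 was at -0.43 and MTD1 at -0.76, and without replicate 2 MTD1 was at -0.35. GCV3, a subunit gene of the glycine cleavage complex, was highest at 0.17, or 0.01 with the trend removed and 0.27 without replicate 2.

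Among the genes that supply PRPP and glutamine, 5 of 6 were below 0, with a median of -0.03, and 1 was lower at limma's unadjusted p under 0.05. Over all features 50.8% had a mean below 0 and 5.29% were lower at that p. The lower gene of the list was GLN1, which encodes glutamine synthetase, at -0.24, -0.64 and -1.09, a mean of -0.66 ± 0.43 (limma adjusted p = 0.269). Its lowest array was array 3, as for ADE4, ADE2, ADE1 and ADE17, while ADE8, ADE6 and BAS1 were lowest on array 2. ADE13 and ADE16 were lowest on array 1. Likeness of pattern between genes was not tested. The PRPP synthetase genes had means between -0.12 ± 0.51 for PRS3 and 0.27 ± 0.23 for PRS2. Without replicate 1 these were 0.17 and 0.17, and PRS3 was at -0.70, 0.11 and 0.23 on the 3 arrays.

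Histidine synthesis also starts from PRPP, releases the intermediate AICAR into the purine pathway and is partly driven by Bas1. Of its 6 measured genes, 4 were below 0, 0 were below 0 on all arrays and 0 had limma's unadjusted p under 0.05. Over all features 50.8% had a mean below 0 and 16.0% were below 0 on all arrays. At that p 5.29% of features were lower and 5.48% higher. The list median was -0.09, with HIS5 at -0.16 (-0.07 with the trend removed), HIS4 at -0.14 (-0.06 without replicate 3) and HIS2 highest at 0.35. The partner gene PHO2 had log2 ratios of 0.24, -0.16 and -0.06 and a mean of 0.01 ± 0.21, which was -0.16 with the trend removed and -0.11 without replicate 1. GCN4, the activator of amino acid synthesis genes, averaged -0.19 ± 0.16.

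Salvage genes, which recycle bases and nucleosides, had a median above 0. Of 9 measured, 6 had a mean above 0 and 5 were above 0 on all arrays, with a median of 0.11, which was 0.04 with the trend removed. At limma's unadjusted p under 0.05, 2 were higher and 1 lower. Over all features 50.8% had a mean below 0 and 16.0% were above 0 on all arrays. At that p 5.48% of features were higher and 5.29% lower. The higher salvage genes were APT2 and AAH1. APT2, a paralog of the adenine phosphoribosyltransferase gene APT1, was at 0.87, 0.53 and 0.42 (mean 0.60 ± 0.23, limma adjusted p = 0.292). AAH1, the adenine deaminase gene, named here after its values were seen, was at 0.12, 0.72 and 0.60 (mean 0.48 ± 0.31, limma adjusted p = 0.399). FCY2, the gene of the purine-cytosine permease, was lowest at -0.64, -0.65 and -0.46 (mean -0.58 ± 0.11, limma adjusted p = 0.295), followed by ADO1, the adenosine kinase gene, at -0.09 (0.01 without replicate 1). Whether salvage and synthesis genes differed was not tested.

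**Figure D4:**
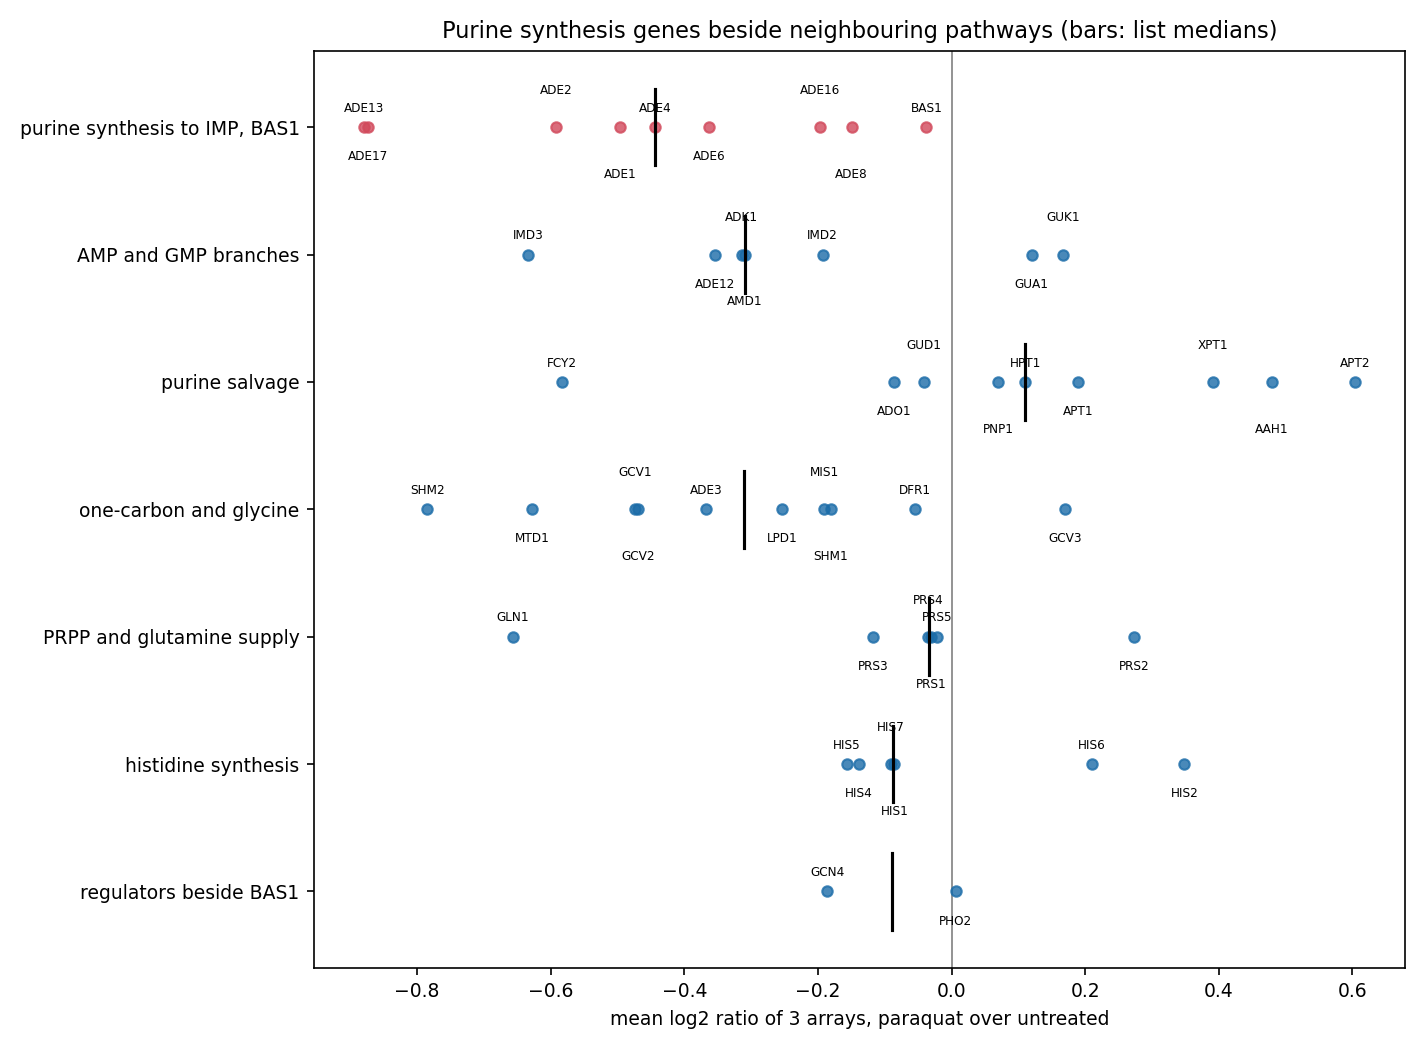
Mean log2 ratio of 3 arrays (horizontal axis) for each measured gene of purine synthesis to IMP with BAS1 (red) and of 6 neighbouring lists (blue), with black bars at list medians. The purine synthesis median is -0.44, those of the AMP and GMP branches and of the folate and glycine genes are both -0.31, and that of salvage genes is 0.11.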

How the data were processed

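The authors deposited 1 log ratio per probe and scan, treated here as log2. Per the labels, spots of flag 0 had been normalized by LOWESS. The scanner and image software are not given in the sources used. High power scans held a value for 5730 to 6006 of 6912 probes and low power scans for 2496 to 4076. The number of arrays limits the precision. Probes were named from the platform annotation (5513 with a symbol, 0 with several, 1399 with none), and loci were taken from RefSeq assembly R64. Probes of identical values (9 decimals) and name were joined. In R 4.3.3, limma 3.58.1 (lmFit, eBayes) tested the mean of 3 arrays against 0 over 5693 features, two-sided, with Benjamini-Hochberg adjustment, after tests on simulated data. Members, lists, tests and the 13 alternatives were chosen with earlier results of these data known. All members were named, and of each list the lowest pair, the highest gene, SHM2, MTD1, PHO2, GCN4, ADE12 and GLN1. A planned promoter motif search was not run, since promoter sequences were not used here.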

Additional observations from a re-analysis of the deposited data

How the results depend on the processing

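The 3 arrays limit the precision, and all share one dye order. The count of members called was 0 and became 2 on low power scans alone (ADE13 and ADE17), 1 with named features alone (ADE13), 1 without replicate 2 (ADE13) and 0 without replicate 1 or 3. It was 0 under the other 8 alternatives. The share of all features called lower was 0.506% on low power scans alone, 0.0958% with named features alone and 0.454% without replicate 2. Without each replicate, members with one negative sign ranged from 5 to 7, but there only 2 arrays had to be below 0. These counts are thus not like those on 3 arrays, and the matching share of all features is not given here. On the 6 members with a value in all 6 scans, the count below 0 on all 3 arrays was 3, as ADE13 and ADE17 were not among them. Of all 5693 features tested 2 were called. On the same features the count was 0 with centred arrays, with centred and scaled arrays and without variance moderation. It was 1 with the probe-number trend removed and 6 with robust eBayes. Other fits held other numbers of features, so their counts are not directly alike. The count was 0 of 5509 on high power scans alone and 6 of 5966 with a value on at least 2 arrays. It was 14 of 5218 with named features alone, 18 of 1978 on low power scans alone and 19 of 1794 with a value in all 6 scans. Without each replicate the count of features called ranged from 0 of 5918 (replicate 1) to 70 of 5732 (replicate 2). Of 111 comparisons of a member's mean with an alternative, 106 kept sign and side of the threshold, 4 passed it and 1 turned sign. That 1 was BAS1, whose mean ranged from -0.24 without replicate 1 to 0.28 without replicate 2. Sign could not turn in the fits that changed only the features entered or the variance model, since each member's mean was the same there. Low power scans alone likewise reused the values of ADE13, and high power scans alone those of BAS1. Where no fewer features or arrays entered a fit, the cause was not tested.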

Other observations

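The 9 measured members lie on 7 chromosomes. Of their 18 nearest protein-coding neighbours in the RefSeq R64 annotation, 16 had a value. A mean log2 ratio below 0 was found for 14 of these, and for 50.8% of all features. The neighbours' median was -0.10, beside -0.01 over all features, with a range from -0.41 (AFI1, beside ADE2) to 0.24 (ERG25, beside ADE6). These means still hold the trend over probe numbers. With that trend removed AFI1 was at -0.30, while AAT2, beside ADE16, went from -0.27 to 0.05. The neighbours as a set are not given here with the trend removed. Whether the neighbours differ from other features was not tested. RPL15B, which encodes a ribosomal protein of the large subunit and lies beside ADE17, was at -0.41. Its paralog RPL15A, beside ADE16, was at -0.02. This pair was picked out of the 16 neighbours with a value, and its difference was not tested. These neighbours were looked up after the members' values were seen.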
